A study of Mus musculus with 23 samples.

Results

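Wildtype (WT) female mice were compared with WT male mice, both on the control diet, by RNA sequencing of osteocyte-enriched bone. Members were autosomal genes whose normalized count reached 10 or more in 2 or more of the series' 23 libraries. There were 15059 such genes of the 21402 in the table, and the comparison rested on 3 WT females (mice 1, 14 and 32) and 3 WT males (mice 7, 24 and 25). X- and Y-linked genes, the androgen receptor gene among them, were outside this set.

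All mice were labelled C57BL/6 and 5 months old, and came from crosses of heterozygous C57Bl/6J carriers of an FNDC5 deletion that gave homozygous global knockout (KO) mice and WT controls. FNDC5 is the membrane protein from which the circulating peptide irisin is cut, and no mouse of the main comparison carried its deletion. The control diet held 0.6% calcium and was fed for 2 weeks. The other strata, which share no mouse with the main comparison but enter the same fit and its estimate of the spread, were KO females and males on that diet (3 and 3 mice), WT females and males on a diet with 0.01% calcium (3 and 3) and KO females and males on the low-calcium diet (2 and 3). Tibia and femur shafts were flushed of marrow and digested with collagenase and EDTA before RNA was taken from the remaining chips, so that cells left on or in the bone add to the osteocyte RNA.

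Osteocytes are osteoblast-lineage cells buried in mineralized matrix, where they sense load, release regulators of bone formation such as sclerostin, and supply RANKL, the cytokine that osteoclasts need to form. Both estrogen and androgen act on bone cells through nuclear receptors that change transcription, and the skeleton of mice differs between the sexes in size, matrix and turnover. The comparison asks which autosomal transcripts differ between the sexes in this compartment before any change of genotype or diet.

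The 23 libraries held between 7217601 and 33352631 assigned reads. The osteocyte genes Sost, Dmp1, Mepe and Phex were present in all 6 mice at normalized counts of 2298 to 14411. *Fndc5* itself was near the limit of detection, with 2 to 9 reads in the WT females and 0 to 17 in the WT males on the control diet, 0 to 1 in the KO mice on that diet and 2 and 11 in the KO females on the low-calcium diet, so it gave no firm check of genotype. The WT males on the control diet stood apart in hepatocyte transcripts. Their summed counts over a list of hepatocyte genes were 9240 (mouse 7), 44322 (mouse 24) and 7448 (mouse 25), against 4724 to 5501 in the WT females and 3257 to 6060 in all other mice of the series. Mouse 24 also had the highest summed count of cartilage genes of the 6 mice, at 51647, against 30963 to 31312 in the WT females and 14460 and 17041 in the other males. In tissue RNA, fewer cells of a type and less RNA per cell cannot be told apart.

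Of the 15059 genes, 277 (1.84%) passed an adjusted p under 0.05 in limma, of which 156 (1.04%) were higher in WT females and 121 (0.804%) were lower. An unadjusted p under 0.05 was reached by 2623 genes. The differences were mostly moderate among the genes that rose, with a median log2 fold change of 1.07 and a range of 0.26 to 4.34, and 84 of them exceeded 1. Among the genes that fell the median was -2.43 with a range of -8.12 to -0.30, while the median over all autosomal genes was -0.01. Over all 15059 genes, 7387 differences were positive and 7671 negative. These counts, with the 1.04% that rose and the 0.804% that fell, are the background for every gene list below. The counts of the 3 females and the 3 males did not overlap in 156 of the 156 genes that rose and in 120 of the 121 that fell. The groups did not overlap in 25.7% of all autosomal genes tested, and an exact permutation test of 3 against 3 mice cannot give a two-sided p below 0.1.

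The number of calls depended on single mice. It was 91 without mouse 1, 180 without mouse 14, 97 without mouse 32, 111 without mouse 7, 156 without mouse 24 and 401 without mouse 25. All 277 genes kept their sign in the 6 fits that left out 1 mouse, and 24 of the genes that rose and 44 of those that fell kept the call in all 6. The count of genes lower in females was 51 without mouse 24. Of the 121, 33 reached the count minimum only through the WT males on the control diet, as did 51 of all 15059 genes tested. For genes of that kind the direction was largely fixed in advance, though not every one was called. With the mean levels of the hepatocyte and skeletal muscle lists as covariates, 43 genes passed, all higher in females, and only 7 of these were among the 277. Hepatocyte sums were highest in the WT males compared here, so this fit cannot separate the covariate from the group.

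**Figure D1:**
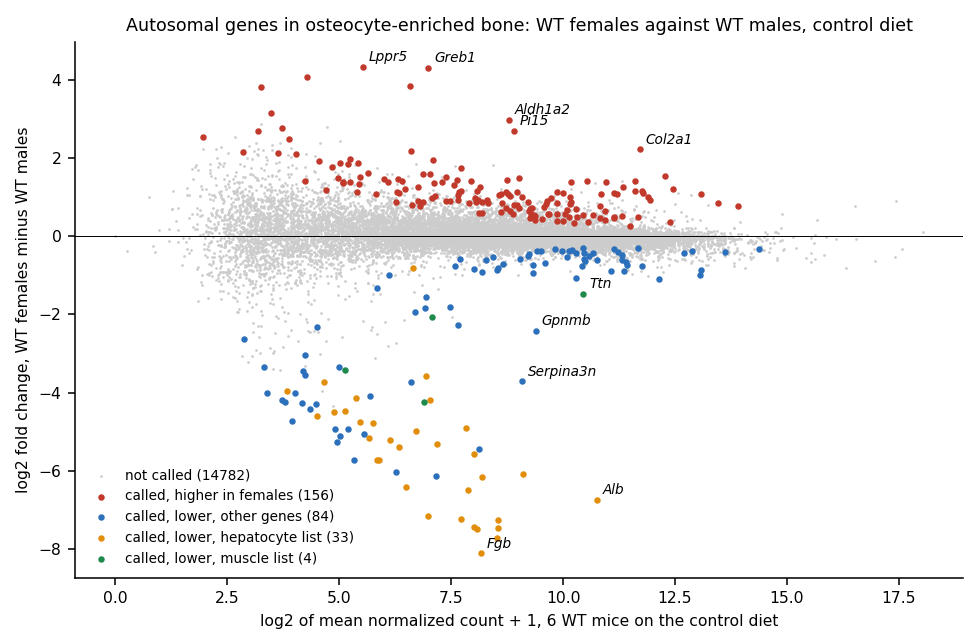
Log2 fold change, WT females minus WT males on the control diet, of each of the 15059 autosomal genes, against the log2 of the mean normalized count plus 1 over the 6 mice. Coloured points are the 156 genes that rose (red) and the 121 that fell, split into hepatocyte list, skeletal muscle list and other genes. The largest falls, down to -8.12, belong mostly to hepatocyte genes, and the rises reach 4.34 for *Lppr5* and 4.31 for *Greb1*.

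The largest rises in log2 fold change were those of *Lppr5* and *Greb1*. *Greb1* (growth regulation by estrogen in breast cancer 1), a classical target of the estrogen receptor, had normalized counts of 242, 299 and 184 in WT females, against 9.09, 12.6 and 11.5 in WT males. The lowest female was thus far above the highest male, and the log2 fold change was 4.31 ± 0.54 (SE, limma adjusted p = 0.000121). *Greb1l*, its paralog, had counts of 99.2, 99.4 and 91 in WT females and 23.9, 46.6 and 41.8 in WT males (log2 fold change 1.40 ± 0.34, adjusted p = 0.0384). The *Greb1l* call was lost without any one of mice 1, 14, 32, 7 or 24, with an adjusted p of up to 0.226.

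*Greb1* lies on chromosome 12 at 16670615 to 16800886 on the minus strand (GRCm38.p6). Its promoter windows, 250 bases before to 50 bases after 2 annotated starts, are shown because *Greb1* is the best-known estrogen target among the genes that rose, beside those of *Aldh1a2* and of *Gpnmb*, a gene that fell. Sequences are from RefSeq, 5′ to 3′ on the strand of the gene, and capitals mark GGTCA or TGACC, the half-site of the estrogen response element on either strand.
Greb1, chr12:16800837-16801136, minus strand: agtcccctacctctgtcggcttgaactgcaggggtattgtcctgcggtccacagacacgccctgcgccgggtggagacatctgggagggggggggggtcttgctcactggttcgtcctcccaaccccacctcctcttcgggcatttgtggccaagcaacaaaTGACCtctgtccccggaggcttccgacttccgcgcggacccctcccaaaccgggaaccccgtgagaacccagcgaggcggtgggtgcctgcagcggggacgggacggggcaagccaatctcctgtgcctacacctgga
Greb1, chr12:16757190-16757489, minus strand: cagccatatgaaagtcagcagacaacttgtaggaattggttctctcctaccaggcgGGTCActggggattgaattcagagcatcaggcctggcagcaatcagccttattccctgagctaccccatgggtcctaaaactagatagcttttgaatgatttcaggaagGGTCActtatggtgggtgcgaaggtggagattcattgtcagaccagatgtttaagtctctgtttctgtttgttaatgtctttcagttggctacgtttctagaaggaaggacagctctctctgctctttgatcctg
Aldh1a2, chr9:71215539-71215838, plus strand: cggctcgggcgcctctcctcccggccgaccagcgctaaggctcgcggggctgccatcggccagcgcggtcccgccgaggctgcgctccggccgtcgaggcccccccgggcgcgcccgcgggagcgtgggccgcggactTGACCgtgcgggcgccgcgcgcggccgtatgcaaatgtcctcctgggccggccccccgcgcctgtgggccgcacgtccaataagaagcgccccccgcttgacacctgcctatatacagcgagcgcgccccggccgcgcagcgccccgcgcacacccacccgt
Gpnmb, chr6:49036268-49036567, plus strand: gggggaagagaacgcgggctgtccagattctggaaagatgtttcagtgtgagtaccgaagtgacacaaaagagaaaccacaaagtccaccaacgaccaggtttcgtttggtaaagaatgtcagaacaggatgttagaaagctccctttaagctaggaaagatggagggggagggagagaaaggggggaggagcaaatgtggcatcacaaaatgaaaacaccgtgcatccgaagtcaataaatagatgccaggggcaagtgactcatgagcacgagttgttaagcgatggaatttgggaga

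The full estrogen response element, written as GGTCA, any 3 bases, TGACC, was found in the windows of 0 of the 104 genes that rose and had a window, 0 of the 88 that fell and 2 of all 11173 tested genes with a window (0.0179%). The androgen and glucocorticoid response element, AGAACA, any 3 bases, TGTTCT, was found in 0, 0 and 1 of them (0.00895% of all). The half-site, searched after the data were seen, was present for 42 of 104 genes that rose (40.4%), 47 of 88 that fell (53.4%) and 4781 of all 11173 (42.8%). The share among the genes that rose was close to that of all genes, and a match of these letters is a description, not a binding site.

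*Aldh1a2*, which encodes an enzyme that makes retinoic acid from retinal, had counts of 826, 926 and 610 in WT females, against 141, 98 and 65.9 in WT males. Every female was far above every male, and the log2 fold change was 2.99 ± 0.35 (adjusted p = 8.98e-05). It was the only member called of 27 retinoic acid genes tested, whose median log2 fold change was -0.08. *Pi15*, a secreted protein of the CRISP family described as a peptidase inhibitor, had counts of 832, 774 and 872 in WT females and 153, 106 and 121 in WT males (log2 fold change 2.71 ± 0.42, adjusted p = 0.00115). *Mme*, the cell-surface peptidase neprilysin, was the most even of these genes, with counts of 1514, 1560 and 1457 in WT females and 750, 762 and 755 in WT males. Its log2 fold change of 1.00 ± 0.12 (adjusted p = 0.000112) made it the only called member of a list of 18 androgen-induced genes, and it was higher in females.

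*Lppr5*, *Shank2* and *Lgi2*, genes known from nerve cells, were expressed at low levels here. Of 17 genes of a nerve and Schwann cell list limma called 0 (4 with an unadjusted p under 0.05, 0 called by edgeR and 1 by DESeq2), and the median log2 fold change was 0.04. *Lppr5*, a membrane protein related to lipid phosphatases, had 84.2, 148 and 28.4 in WT females and 1.14, 5.82 and 2.09 in WT males (log2 fold change 4.34 ± 0.79, adjusted p = 0.00498). *Shank2*, a scaffold protein of synapses, had 187, 226 and 115 in WT females, against 5.68, 25.2 and 8.36 in WT males, with a log2 fold change of 3.85 ± 0.61 and an adjusted p of 0.0016. *Lgi2*, a secreted leucine-rich repeat protein, had 36.3, 56.4 and 13.8 in WT females and 1.14, 0 and 2.09 in WT males. The *Lgi2* log2 fold change was 4.08 ± 0.79 (adjusted p = 0.00859), and its adjusted p without mouse 1 was 0.0519. Mouse 32 was the lowest female for all 3 genes. No female overlapped a male, which was a condition for being named among the largest rises.

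Leaving out predicted genes and RIKEN clones (*5730457N03Rik*, *9030612E09Rik* and *Gm5532* also rose), the remaining genes of the 15 largest rises were *Fam196b*, *Dcc*, *Cd1d2*, *Adamdec1*, *Col2a1*, *Oscar*, *Pakap*, *Pdcd1* and *Prkg2*, with log2 fold changes of 1.98 to 3.16. *Cd1d2*, a near copy of the lipid-presenting *Cd1d1* whose reads may be shared with it, had 16.8, 14.3 and 11.4 in WT females and 0, 0.97 and 5.23 in WT males. *Adamdec1*, a secreted metalloprotease-like protein of macrophages and dendritic cells, had 23.9, 16.2 and 31.7 in WT females and 2.27, 4.85 and 3.14 in WT males (log2 fold change 2.49 ± 0.53, adjusted p = 0.0176). Calls on these low counts were fragile. That of *Fam196b* was lost without any one of mice 1, 14, 32, 7 or 24 (adjusted p up to 0.181), that of *Cd1d2* likewise (up to 0.159), that of *Adamdec1* without mouse 1, 32 or 7 (up to 0.11), that of *Pdcd1* without mouse 1, 32, 7 or 24 (up to 0.124), that of *Pakap* without mouse 1, 14 or 24 (up to 0.0722) and that of *Prkg2* without any mouse but 24 (up to 0.142).

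**Figure D2:**
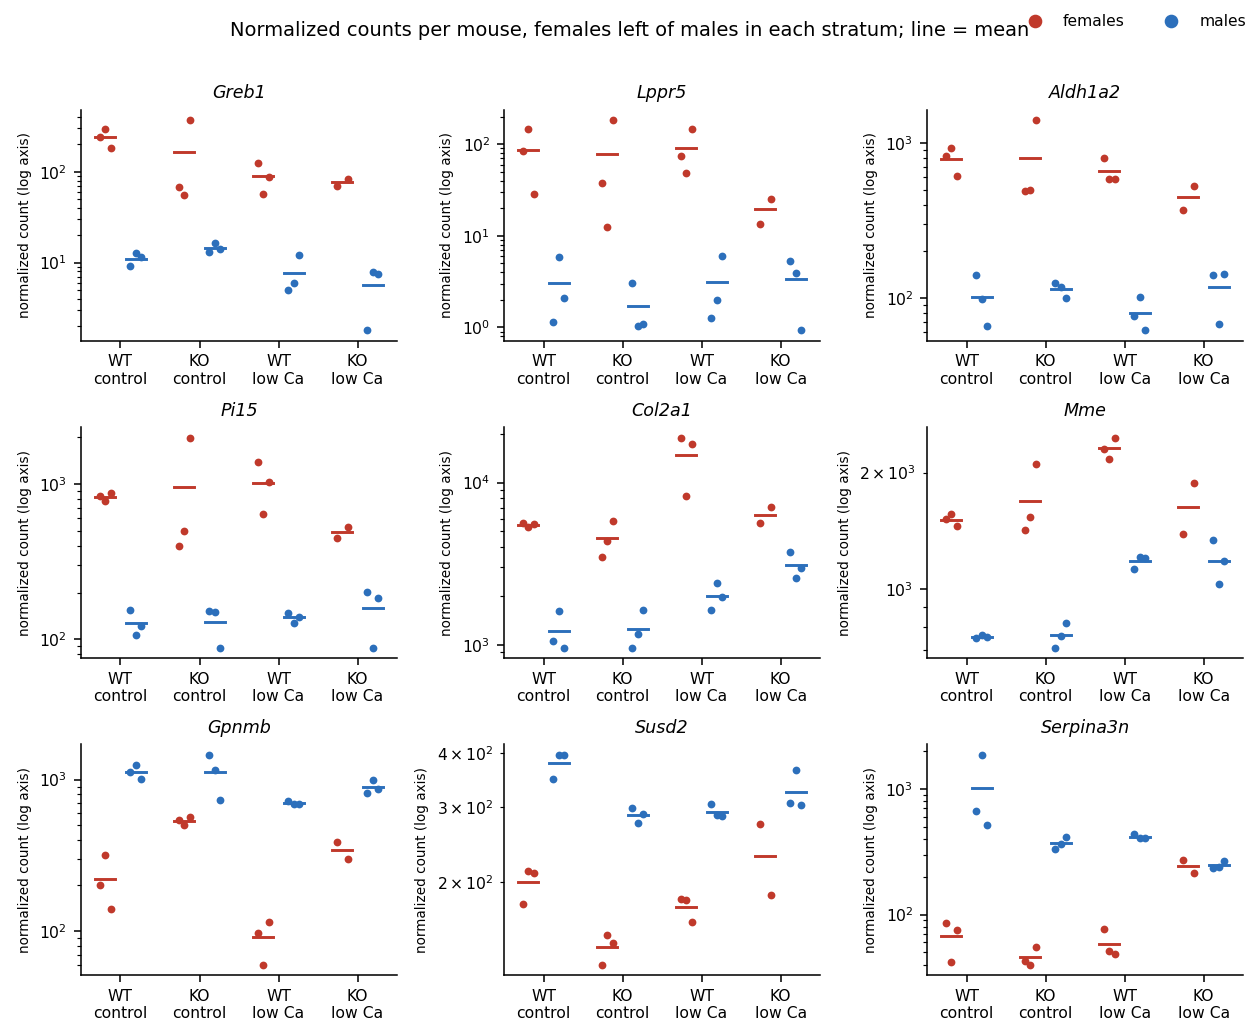
Normalized counts per mouse on a log axis for 6 genes that rose and 3 that fell (*Gpnmb*, *Susd2*, *Serpina3n*) in WT females against WT males on the control diet, with females (red) left of males (blue) in each of the 4 strata and a line at each mean. All 9 genes separate the sexes in the first stratum, as in *Greb1* with 184 to 299 in WT females and 9.09 to 12.6 in WT males. In the KO mice on low calcium the *Serpina3n* counts of females and males overlap.

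None of the 7 steroid hormone receptor genes tested passed the threshold in limma, although 2 had an unadjusted p under 0.05, and edgeR called 0 and DESeq2 1 of them. The progesterone receptor gene *Pgr*, a target of estrogen in reproductive tissue, had counts of 41.6, 37.3 and 24.4 in WT females, against 4.54, 8.73 and 9.41 in WT males. The groups did not overlap, but the log2 fold change of 2.07 ± 0.55 missed the threshold (adjusted p = 0.0555). The estrogen receptor alpha gene *Esr1* had 965, 861 and 1018 in WT females and 607, 688 and 765 in WT males (log2 fold change 0.47 ± 0.16, adjusted p = 0.125), and the glucocorticoid receptor gene *Nr3c1* had overlapping counts near 4200 (log2 fold change -0.04 ± 0.06). Of 26 estrogen-induced genes, *Greb1* rose and the lysosomal protease gene *Ctsd* fell (log2 fold change -0.37 ± 0.09, adjusted p = 0.0316; adjusted p up to 0.163 when any one of mice 1, 14, 32, 24 or 25 was left out). The median of that list was 0.15.

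The gene of the cytokine that drives osteoclast formation and 8 of 29 osteoclast genes rose in WT females. *Tnfsf11*, which encodes RANKL, had normalized counts of 248, 209 and 275 in WT females, against 84.1, 133 and 53.3 in WT males. Each female exceeded each male, and the log2 fold change was 1.51 ± 0.29 (adjusted p = 0.00804; 0.0512 without mouse 32). The receptor gene *Tnfrsf11a* (RANK) had a log2 fold change of 0.60 ± 0.20 (adjusted p = 0.12) and the decoy receptor gene *Tnfrsf11b* (osteoprotegerin) one of 0.20 ± 0.42 with overlapping groups (adjusted p = 0.854). *Csf1*, the other growth factor osteoclasts need, had a log2 fold change of 0.37 ± 0.16 (adjusted p = 0.239). *Tnfsf11* was the only one of the 7 genes of this list to pass.

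Of 29 osteoclast genes, 8 rose and 0 fell, against 1.04% of all genes that rose. Of the 29, 21 had a positive and 8 a negative difference, the females lay above the males without overlap in 15 (1957 of all 15059 genes) and below them in 3 (12.7%), and the median log2 fold change was 0.24. *Oscar*, a collagen receptor that costimulates osteoclast formation, had counts of 179, 180 and 113 in WT females and 22.7, 36.9 and 42.9 in WT males (log2 fold change 2.19 ± 0.32, adjusted p = 0.000696). *Slc9b2*, a sodium-proton exchanger of osteoclasts, had 202, 221 and 217 in WT females and 32.9, 63.1 and 78.4 in WT males (log2 fold change 1.94 ± 0.35, adjusted p = 0.00435). *Mst1r*, a receptor tyrosine kinase for macrophage-stimulating protein, had 191, 198 and 192 in WT females and 54.5, 64 and 72.1 in WT males (log2 fold change 1.60 ± 0.26, adjusted p = 0.00172). These 3 genes kept their calls whichever of the 6 mice was left out.

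*Acp5*, the tartrate-resistant acid phosphatase used to stain osteoclasts, had 4813, 5470 and 4013 in WT females and 1570, 2436 and 2454 in WT males. Its log2 fold change was 1.16 ± 0.29 (adjusted p = 0.0426; up to 0.233 when any one of mice 1, 14, 32, 7 or 24 was left out). The collagen-degrading protease gene *Ctsk* had 3703, 4496 and 2803 in WT females, against 783, 1852 and 1731 in WT males. Its groups did not overlap either, but the log2 fold change of 1.41 ± 0.40 did not pass (adjusted p = 0.0742). *Calcr*, the calcitonin receptor, had 47.9, 30.6 and 27.6 in WT females and 6.82, 15.5 and 5.23 in WT males (log2 fold change 1.93 ± 0.43, adjusted p = 0.0224; up to 0.126 when mouse 1, 32, 7 or 25 was left out). The other members that rose were *Mmp14*, *Ckb* and the integrin subunit gene *Itgav*, with log2 fold changes of 0.50 to 0.89, each lost without any one of mice 1, 14, 32, 7 or 24 (adjusted p up to 0.174 for *Mmp14*, 0.148 for *Ckb* and 0.155 for *Itgav*). Summed over the list, however, the counts were 87640 to 95866 in WT females and 89676 to 92825 in WT males and overlapped.

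Of 29 osteoblast and mineral matrix genes, 5 rose and 0 fell, against 1.04% of all genes that rose. A positive difference was found in 28 of them (7387 of all 15059 genes), and the median log2 fold change was 0.73, against -0.01 over all genes. *Alpl*, the tissue-nonspecific alkaline phosphatase that frees phosphate for mineral, had counts of 3741, 3548 and 3659 in WT females and 1540, 1496 and 1540 in WT males (log2 fold change 1.26 ± 0.29, adjusted p = 0.0287). *Ibsp*, bone sialoprotein, had 8130, 9547 and 5899 in WT females and 3016, 4582 and 2701 in WT males (log2 fold change 1.21 ± 0.29, adjusted p = 0.0325). The spread between mice of 1 sex was small for *Alpl* and wide for *Ibsp*, and in neither did the sexes overlap. *Sp7*, a transcription factor of the osteoblast lineage, rose by a log2 fold change of 0.85 ± 0.22 (adjusted p = 0.043). Each of these 3 calls rested on most of the mice. The *Alpl* call was lost without mouse 1, 14, 32, 7 or 24 (adjusted p up to 0.115), that of *Sp7* without the same mice (up to 0.193) and that of *Ibsp* without mouse 1, 14, 7 or 25 (up to 0.146).

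*Postn*, periostin of the periosteum, also rose, with 2167, 2323 and 1905 in WT females and 557, 866 and 1061 in WT males. Its log2 fold change was 1.41 ± 0.28 (adjusted p = 0.0104; up to 0.0902 without mouse 1 or 7). Among genes that mark osteocytes, *Dmp1* had 10277, 6111 and 14411 in WT females and 5322, 3708 and 5166 in WT males (log2 fold change 1.05 ± 0.39, adjusted p = 0.161), and *Sost*, sclerostin, had 7958, 7398 and 8734 in WT females and 6491, 4797 and 5640 in WT males (0.52 ± 0.38, adjusted p = 0.518). Of 25 osteocyte genes, which had a median of 0.24, only the receptor phosphatase gene *Ptprz1* rose (log2 fold change 0.88 ± 0.22, adjusted p = 0.0381), a call lost in each of the 6 fits that left out a mouse (adjusted p up to 0.194).

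Of 40 collagen chain genes, 5 rose and 0 fell, against 1.04% of all genes that rose. A positive difference was found in 38 of them, against 7387 of all 15059 genes, and the median log2 fold change was 0.77. Summed over the list, the normalized counts were 392620 to 423547 in WT females, against 205212 to 239046 in WT males. *Col2a1*, the main collagen of cartilage, had 5624, 5343 and 5547 in WT females and 1051, 1617 and 961 in WT males. With a log2 fold change of 2.22 ± 0.27 (adjusted p = 9.08e-05), it kept its call under each of the 16 alternatives fitted to single genes. *Col8a1*, *Col11a2*, *Col13a1* and *Col22a1* rose by log2 fold changes of 1.10 to 1.38, with adjusted p between 0.0226 and 0.0395, and each was lost in at least 4 of the 6 fits without a mouse (adjusted p up to 0.117 for *Col8a1*, 0.0987 for *Col11a2*, 0.18 for *Col13a1* and 0.157 for *Col22a1*).

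*Col1a1*, the main collagen of bone and one of its most abundant transcripts, had 230541, 236903 and 225912 in WT females and 137653, 117631 and 115200 in WT males. The sexes did not overlap, yet the log2 fold change of 0.91 ± 0.28 did not pass (adjusted p = 0.101). *Plod2*, which hydroxylates collagen lysines for cross-linking, was the only one of 32 collagen processing genes to pass, with 3002, 3023 and 3139 in WT females and 1414, 1627 and 1207 in WT males (log2 fold change 1.12 ± 0.25, adjusted p = 0.0249; up to 0.107 without a mouse other than 24). Of 23 cartilage genes, *Col2a1* and *Col11a2* rose. The median of the cartilage list was 0.75, and 1.46 without mouse 24, the male with the highest cartilage counts.

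*Mmp13*, a collagenase made by osteocytes, osteoblasts and hypertrophic chondrocytes, had 7317, 8254 and 6157 in WT females and 1335, 3695 and 2985 in WT males. Its log2 fold change was 1.55 ± 0.36 (adjusted p = 0.0291; up to 0.195 without mouse 1, 14, 32 or 7). Of 37 MMP, ADAMTS and TIMP genes, *Mmp13*, *Mmp14* and *Mmp16* rose (1.04% of all genes rose) and 0 fell. The list had 27 positive and 10 negative differences and a median of 0.37. *Tnc*, tenascin-C, and *Fbn2*, fibrillin-2, rose with *Postn* among 18 tendon and periosteum genes, by log2 fold changes of 0.77 ± 0.20 and 1.43 ± 0.30 (adjusted p = 0.0459 and 0.0171). Without mouse 24 only 1 of these 18 genes passed, as did 2 of the osteoblast, 3 of the collagen and 1 of the MMP genes.

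**Figure D3:**
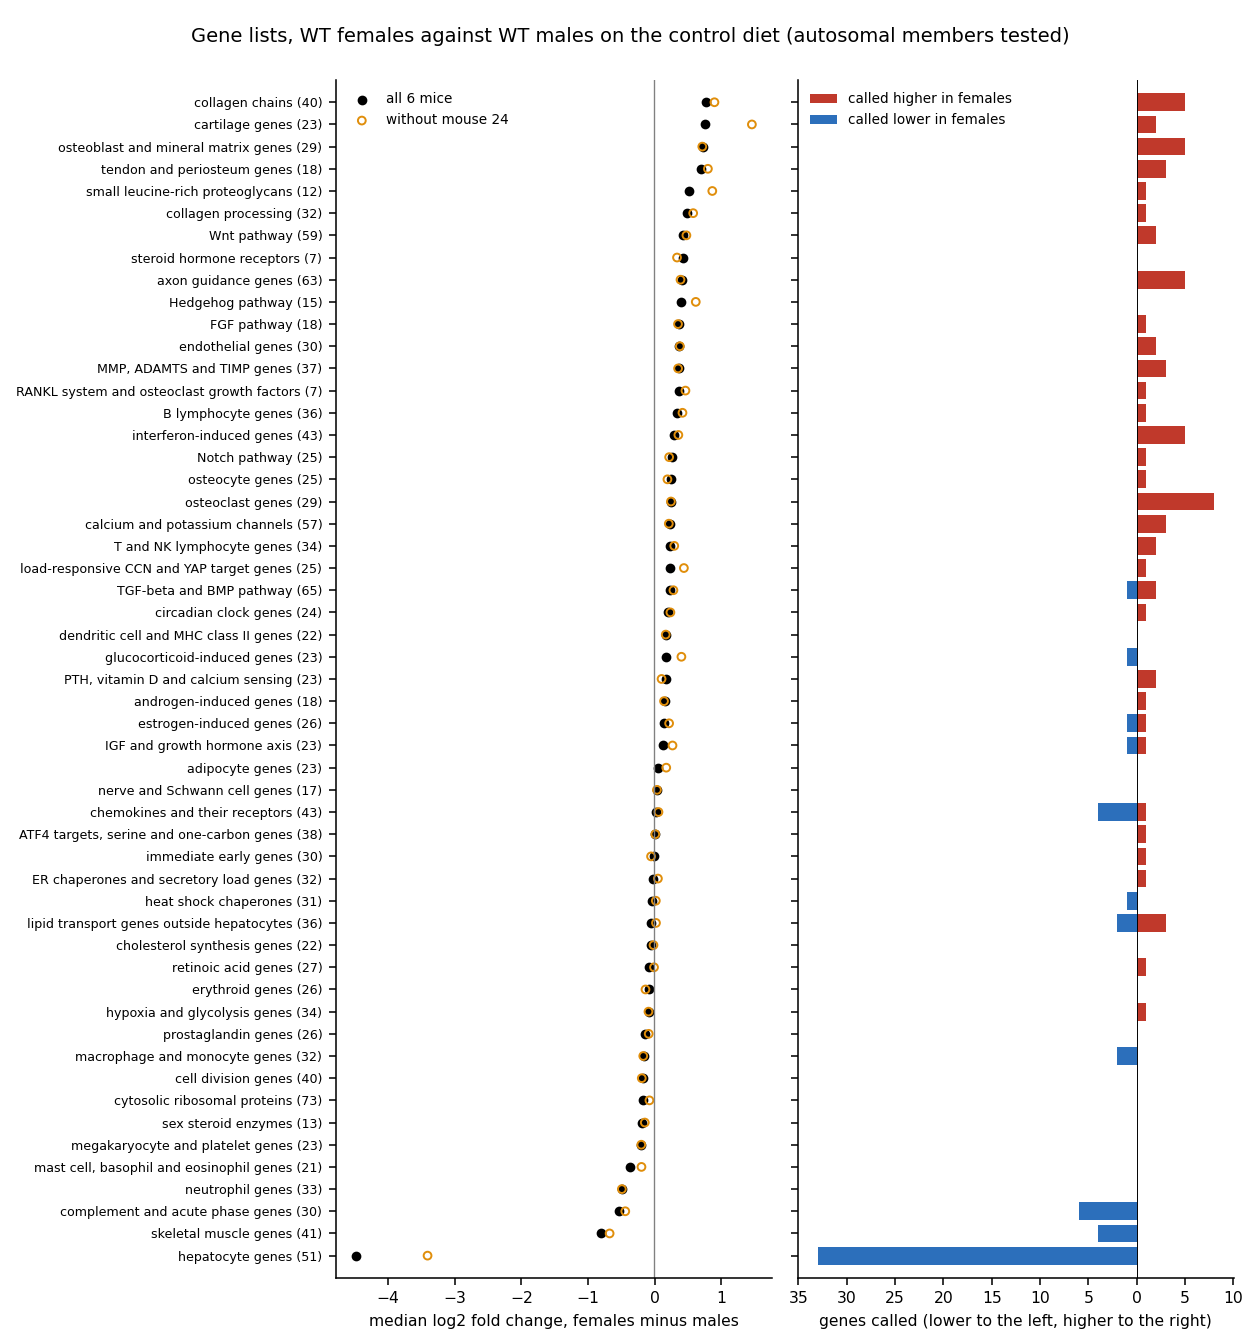
Left, the median log2 fold change (WT females minus WT males, control diet) of each of 53 gene lists, with the number of autosomal members tested in brackets, for all 6 mice (filled) and without mouse 24 (open); the grey line is the median of all autosomal genes, -0.01. Right, the number of members called lower (blue) and higher (red). Collagen, cartilage and osteoblast lists have the highest medians, 0.73 to 0.77, and the hepatocyte list the lowest, -4.49 with 33 members lower.

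Few genes of the signalling lists passed, and their counts stand against 1.04% of all genes that rose and 0.804% that fell. Of 59 Wnt pathway genes, *Lrp4*, a receptor through which sclerostin acts, and *Rspo3*, a secreted enhancer of Wnt signalling, rose and 0 fell, with 54 positive differences and a median log2 fold change of 0.43. *Lrp4* had 3226, 3273 and 3085 in WT females and 1238, 1416 and 1942 in WT males (log2 fold change 1.09 ± 0.23, adjusted p = 0.0178). The *Lrp4* call was lost without any one of mice 1, 14, 32, 7 or 24 (adjusted p up to 0.112). *Rspo3* had 118, 115 and 84.5 in WT females and 34.1, 65 and 46 in WT males (log2 fold change 1.14 ± 0.26, adjusted p = 0.0256; up to 0.159 without mouse 1, 14 or 7). *Heyl*, a transcription factor induced by Notch, was the only one of 25 Notch genes to rise, with 284, 270 and 302 in WT females and 82.9, 126 and 112 in WT males (1.43 ± 0.28, adjusted p = 0.00996; up to 0.0742 without mouse 32 or 7).

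Among 65 TGF-beta and BMP pathway genes, 2 rose and 1 fell. *Ltbp2*, a latent TGF-beta binding protein of microfibrils, and *Id3*, a target of BMP signalling, rose by log2 fold changes of 0.69 ± 0.15 and 0.66 ± 0.16 (adjusted p = 0.0187 and 0.0368; up to 0.12 and 0.212 without mouse 1, 32 or 7). *Fst*, the activin antagonist follistatin, fell, with 134, 134 and 156 in WT females and 235, 251 and 229 in WT males (-0.75 ± 0.14, adjusted p = 0.0057). *Tgfb1* counts overlapped between the sexes (0.02 ± 0.09, adjusted p = 0.953), whereas *Tgfb3* had 554, 543 and 533 in WT females and 195, 269 and 250 in WT males and fell just outside the threshold (1.20 ± 0.32, adjusted p = 0.0584). *Igfbp5*, the most abundant IGF-binding protein gene of bone, had 14426, 13071 and 16164 in WT females and 6870, 10172 and 7508 in WT males (0.85 ± 0.15, adjusted p = 0.00457). *Pappa*, a protease that cleaves IGF-binding proteins, fell (-0.64 ± 0.14, adjusted p = 0.0249, up to 0.1 without mouse 1, 14 or 24). The IGF and growth hormone axis list gave 1 rise and 1 fall of 23 genes, with 14 positive and 9 negative differences and a median of 0.13.

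Calcium-handling genes that rose included *Cacna1h*, the pore of a T-type calcium channel, with 275, 263 and 297 in WT females, against 108, 139 and 133 in WT males. The log2 fold change of 1.14 ± 0.14 (adjusted p = 9.34e-05) held in each fit that left out a mouse. *Cacnb3*, a calcium channel subunit, had 237, 220 and 221 in WT females and 84.1, 76.7 and 95.1 in WT males (1.40 ± 0.24, adjusted p = 0.0032). With *Cacna1e* (0.54 ± 0.13, adjusted p = 0.0397; up to 0.157 when mouse 1, 14, 32, 7 or 24 was left out), 3 of 57 calcium and potassium channel genes rose and 0 fell. *Vdr*, the vitamin D receptor, had 1061, 830 and 1112 in WT females and 433, 614 and 652 in WT males. It rose with *Calcr* among 23 genes of the parathyroid hormone, vitamin D and calcium sensing list (0.83 ± 0.18, adjusted p = 0.0227; up to 0.15 without mouse 1, 32 or 7).

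Axon guidance genes, many of which also act in bone and vessels, gave 5 rises and 0 falls of 63, against 1.04% of all genes that rose. The list had 50 positive differences and a median of 0.42. *Unc5c*, a netrin receptor, had 113, 125 and 126 in WT females and 42, 48.5 and 43.9 in WT males (log2 fold change 1.42 ± 0.25, adjusted p = 0.00327), and the call held whichever mouse was left out. *Slit2*, a secreted ligand of Robo receptors, had 2416, 2330 and 2749 in WT females and 987, 1205 and 1391 in WT males (1.07 ± 0.21, adjusted p = 0.00927; up to 0.0711 without mouse 32 or 7). *Dcc*, another netrin receptor, had 13.3, 27.7 and 24.4 in WT females, against 1.14, 3.88 and 2.09 in WT males (2.78 ± 0.61, adjusted p = 0.0224; up to 0.117 without mouse 14, 32 or 7). *Nrp2* and *Sema7a* were the other members that rose, by 0.92 ± 0.22 and 0.82 ± 0.18 (adjusted p up to 0.14 and 0.152 in the fits without a mouse that lost the call, mouse 24 among them).

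Of 36 lipid transport genes outside hepatocytes, 3 rose and 2 fell, against 1.04% and 0.804% of all genes. The list had 17 positive and 19 negative differences and a median of -0.05. Lipid-handling genes that rose included a pair whose calls held in each fit without a mouse. *Vldlr*, a receptor for triglyceride-rich lipoproteins, had 1689, 1764 and 1515 in WT females and 673, 538 and 707 in WT males (log2 fold change 1.38 ± 0.27, adjusted p = 0.00838). *Lipc*, hepatic lipase, had 265, 251 and 278 in WT females and 101.1, 150 and 76.3 in WT males (1.32 ± 0.26, adjusted p = 0.00868), the opposite direction to the hepatocyte list. *Lipa*, lysosomal acid lipase, and *Fabp5*, a fatty acid carrier, fell by 0.43 and 0.57 on the log2 scale (adjusted p = 0.0171 and 0.0352; up to 0.133 and 0.24 without a mouse, each lost among others without mouse 24). No adipocyte gene of 23 passed in limma, 7 had an unadjusted p under 0.05, and edgeR called 1 and DESeq2 3. *Adipoq*, adiponectin, had 1530, 1521 and 1394 in WT females and 1046, 1160 and 529 in WT males (0.78 ± 0.23, adjusted p = 0.0823).

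Interferon-induced genes were slightly higher in WT females as a group. Of 43, 5 rose (1.04% of all genes rose) and 0 fell, 41 had a positive difference (7387 of all 15059 genes) and the median log2 fold change was 0.30. *Cxcl10*, a chemokine induced by interferon gamma, had 343, 249 and 488 in WT females and 128, 141 and 120 in WT males (log2 fold change 1.41 ± 0.24, adjusted p = 0.00324), and it kept its call under all 16 alternatives. *Ifit1*, an antiviral RNA-binding protein, had 363, 308 and 414 in WT females, against 172, 202 and 188 in WT males (0.94 ± 0.18, adjusted p = 0.0064; 0.0529 without mouse 32). *Oasl2*, *Ifi44* and *Parp14* rose by 0.52 to 1.47, with adjusted p up to 0.0941, 0.227 and 0.186 in fits without a mouse, all lost without mouse 1 or 32. Of 34 T and NK lymphocyte genes 2 rose, and of 36 B lymphocyte genes 1 rose, against 1.04% of all genes. *Ctla4*, an inhibitory receptor of T cells, had 80.6, 83.2 and 60.1 in WT females and 23.9, 16.5 and 31.4 in WT males (1.63 ± 0.34, adjusted p = 0.0158, up to 0.0789 without mouse 1, 14, 7 or 24). *Cd28* and *Fcrl5* were the others (up to 0.166 and 0.134, both lost without mouse 1, 32, 24 or 25). Other T cell genes were also called higher, such as *Pdcd1* and *Ifng*, the latter lost in each of the 6 fits without a mouse (adjusted p up to 0.172).

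Of 32 macrophage and monocyte genes, *Gpnmb* and *Lgals3* fell (0.804% of all genes fell) and 0 rose. The list had 10 positive and 22 negative differences and a median of -0.15, and 1 of its genes fell without mouse 24. *Gpnmb*, a transmembrane glycoprotein of macrophages, osteoclasts and osteoblasts (chromosome 6, 49036546 to 49070929, GRCm38.p6), had normalized counts of 202, 315 and 140 in WT females, against 1128, 1241 and 1009 in WT males. The highest female was far below the lowest male, and the log2 fold change was -2.43 ± 0.25 (adjusted p = 1.95e-05). *Ccr1*, a chemokine receptor of myeloid cells, had 1743, 2101 and 1692 in WT females and 3543, 3418 and 3295 in WT males (-0.90 ± 0.16, adjusted p = 0.00409). Both calls held in each fit that left out a mouse. Of 43 chemokine genes, *Ccr1*, *Ccl6*, *Ccl9* and *Cxcl2* fell (0.804% of all genes fell) and *Cxcl10* rose. Without mouse 24 only 1 of the 43 fell.

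*Irg1*, *Clec4e* and *Clec4d* were picked after their values were seen and stand for no list. *Irg1*, the enzyme that makes itaconate in activated macrophages, had 5503, 5716 and 5824 in WT females and 11800, 10736 and 11531 in WT males and fell by 1.00 ± 0.24 on the log2 scale (adjusted p = 0.0335). The C-type lectin receptor genes *Clec4e* and *Clec4d* fell by 0.77 and 0.90 on the log2 scale (adjusted p = 0.0388 and 0.0425). Calls of this size were lost in most fits that left out a mouse, with adjusted p up to 0.134 for *Irg1*, 0.227 for *Clec4e* and 0.225 for *Clec4d*. Of the 33 neutrophil genes tested, 0 had a positive difference and 22 lay below the males without overlap (12.7% of all genes), with a median of -0.49, yet limma and edgeR called 0 of them, DESeq2 called 9, and 20 had an unadjusted p under 0.05. Their summed counts were 492891 to 583010 in WT females, against 638868 to 890656 in WT males.

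*Serpina3n*, a secreted inhibitor of serine proteases and an acute phase gene, had the lowest p of all 15059 genes. It had 85.1, 42.1 and 75.6 in WT females, against 668, 1861 and 515 in WT males, and the log2 fold change was -3.72 ± 0.33 (adjusted p = 1.37e-06). The call held without mouse 24, the highest male. It belongs to a cluster of near-identical genes on chromosome 12, so that part of its reads may be shared with neighbours. *C2*, a complement component, had 81.5, 53.5 and 90.2 in WT females and 303, 369 and 157 in WT males (-1.81 ± 0.36, adjusted p = 0.0105; up to 0.066 without mouse 14, 7 or 24). Of 30 complement and acute phase genes 6 fell (0.804% of all genes fell) and 0 rose, with a median of -0.53, and without mouse 24 only 3 fell. *Hpx*, *Itih4* and *Orm2* among the 6 are known as liver products, and *Orm2* has near-identical copies.

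Genes outside the lists that fell with calls in each fit without a mouse, again picked after their values were seen, were *Slc26a7*, *Scara5* and *Susd2*. *Slc26a7*, an anion exchanger, had 73.5, 114 and 32.5 in WT females and 353, 388 and 232 in WT males (log2 fold change -2.27 ± 0.37, adjusted p = 0.00194). *Scara5*, a scavenger receptor that binds ferritin and marks mesenchymal cells, had 37.2, 49.7 and 60.1 in WT females and 131, 306 and 136 in WT males (-1.85 ± 0.30, adjusted p = 0.00164). *Susd2*, a membrane protein of mesenchymal stromal cells, had 178, 212 and 210 in WT females and 348, 396 and 395 in WT males (-0.92 ± 0.13, adjusted p = 0.000395). The ferritin genes *Ftl1* and *Fth1* fell by 0.41 and 0.34 on the log2 scale (adjusted p = 0.00539 and 0.0489; up to 0.0514, without mouse 32, for *Ftl1* and 0.157, lost in each of the 6 fits, for *Fth1*).

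The deepest falls were liver transcripts. Of 51 hepatocyte genes that passed the count minimum (of 70 listed), 33 fell (0.804% of all genes fell) and 0 rose, with a median log2 fold change of -4.49. Of the 51, 19 passed the minimum only through the WT males on the control diet, so that their direction was largely fixed in advance. The counts and medians of this list include these 19 genes and are no test against the 0.804%. *Alb*, albumin, had 46.1, 9.56 and 8.94 in WT females, against 1026, 8560 and 693 in WT males (mice 7, 24 and 25). Albumin was high in all 3 males and highest in mouse 24, and the log2 fold change was -6.75 ± 0.95 (adjusted p = 0.000398). *Fgb*, the fibrinogen beta chain, had no read in any WT female, against 160, 1471 and 89.9 in WT males. Taking a floor of 3 reads over the females, WT females had at least 651-fold lower counts, a bound of 142-fold once mouse 24 was left out. *Tat*, tyrosine aminotransferase, likewise had no read in WT females, against 68.2, 613 and 66.9 in WT males, so that it was at least 283-fold lower in WT females, with a bound of 76.7-fold once mouse 24 was left out. Without mouse 24, 22 of the 51 genes fell, with a median of -3.41. Serpina1, Serpina3, Mup and Mug family members among them are near-identical copies whose counts are uncertain.

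Skeletal muscle transcripts had the same order, without mouse 24 standing out. *Ckm*, muscle creatine kinase, had 1.77, 6.69 and 8.12 in WT females, against 57.9, 78.6 and 50.2 in WT males (log2 fold change -3.42 ± 0.61, adjusted p = 0.004). *Ttn*, titin, had 816, 467 and 1018 in WT females and 2078, 2302 and 1716 in WT males (-1.47 ± 0.27, adjusted p = 0.00532). With *Myh4* and *Atp2a1*, 4 of 41 muscle genes fell (0.804% of all genes fell) and 0 rose. Summed over the list the counts were 7024 to 7787 in WT females and 8154 to 8698 in WT males and did not overlap. Some females of other strata had higher sums than these males. Mouse 20, a KO female on the control diet, had 9519, and mice 16 and 18, WT females on low calcium, had 10191 and 14321. The part of liver and muscle RNA in the other differences was not tested.

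**Figure D4:**
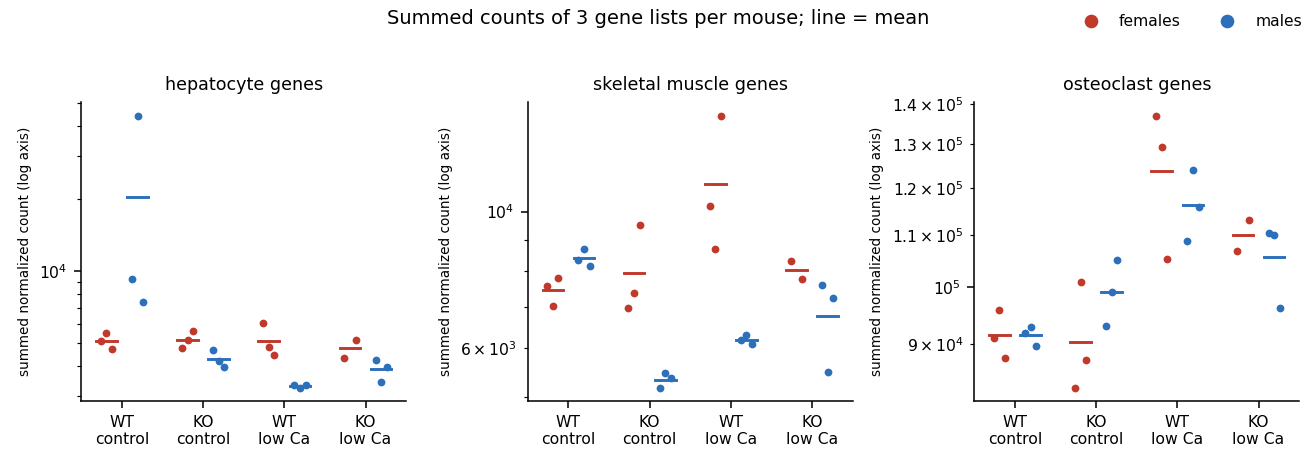
Summed normalized counts per mouse (log axis) of the hepatocyte, skeletal muscle and osteoclast gene lists in the 4 strata, females (red) left of males (blue), with a line at each mean. The hepatocyte sums of the WT males on the control diet, 7448 to 44322, lie above those of every other mouse of the series, while their osteoclast sums overlap those of the WT females.

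The sex differences of the main comparison could be read against mice outside its 2 groups. Each gene's estimate of the spread came from all 23 mice and served both sets of calls, so these calls were not independent. Averaged over the 2 KO strata, 80 of the 156 genes that rose in WT females were also called higher in females (51.3%, against 5.09% of all genes) and 0 were called lower. Of the 121 genes that fell, 28 were called lower there (23.1%, against 6.47%) and 1 was called higher, *Ttn* of the muscle list (0.82, adjusted p = 0.0156). Outside the hepatocyte and skeletal muscle lists, 28 of 84 were called lower (33.3%) and 0 higher. This average was chosen after the data were seen; the planned average over the other 3 strata called 140 of the 156 (18.6% of all genes) and 42 of the 121 (18.1%), with 7 of the 121 called in the opposite direction.

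Each stratum gave its own count. In KO mice on the control diet, 47 of the 156 were called higher (1.77% of all genes), in WT mice on low calcium 135 (17.2%) and in KO mice on low calcium 18 (1.08%). The study's quality control gave low mapping rates for the WT females on low calcium, possibly from bacterial reads. Mice 16 and 17 of that group had the lowest depths of the series, at 11256675 and 7217601 reads. The part of this in the counts of that stratum was not tested. Among the 121, 16 (2.12%), 28 (14.8%) and 4 (1.49%) were called lower. In all 4 strata, females and males did not overlap for 42 of the 156 and 13 of the 121, while 190 and 211 of all tested genes were separated in this way. The first of the 4 strata is the main comparison itself, where 156 and 120 of the called genes were already separated, against 1957 and 1909 of all genes. The called genes thus met that condition nearly in advance, and their shares cannot be set against those of all genes. *Greb1*, *Lppr5*, *Lgi2*, *Aldh1a2*, *Dcc*, *Pi15*, *Adamdec1*, *Col2a1*, *Myo5c* and *Postn* led the 42, and *Gpnmb* led the 13 that fell, with *Slc26a7*, *Scara5*, *Tac2*, *Susd2*, *Ccr1* and *Nt5e*.

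For *Greb1* the log2 fold change was 2.86 in KO mice on the control diet (adjusted p = 0.00936), 3.41 in WT mice on low calcium (0.000515) and 3.71 in KO mice on low calcium (0.00749). For *Aldh1a2* it was 2.61 (0.000393), 3.04 (7.07e-05) and 1.99 (0.0191), and for *Gpnmb* -1.01 (0.0346), -2.98 (1.11e-06) and -1.39 (0.0199). The progesterone receptor gene *Pgr*, not called in the main comparison, had 2.39 (0.0249), 2.06 (0.00757) and 1.71 (0.116). The osteoclast genes did not all recur in the KO mice. Averaged over the KO strata, *Oscar* had 0.45 (adjusted p = 0.223), *Mst1r* 0.46 (0.124), *Slc9b2* 0.54 (0.175), *Acp5* 0.35 (0.303) and *Tnfsf11* 0.54 (0.105), and only *Calcr* passed (1.71, adjusted p = 0.00408).

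**Figure D5:**
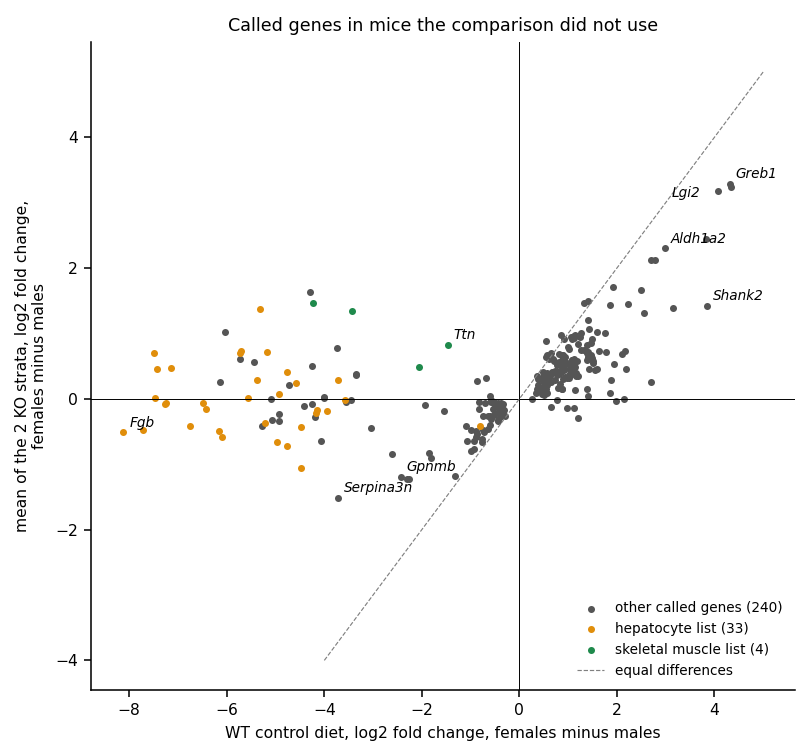
Log2 fold change, females minus males, averaged over the 2 KO strata, against that of WT mice on the control diet, for the 277 called genes, with the line of equal differences dashed. Genes that rose lie mostly above 0 on both axes (148 of 156), whereas the hepatocyte genes, far left, scatter around 0 in the KO mice.

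Whether the sex difference itself depended on genotype or diet was tested with interaction terms. Of 15059 genes, 12 (0.0797%) had a different sex difference in WT than in KO mice on the control diet, and 25 (0.166%) a different one on the control than on the low-calcium diet in WT mice. Apart from *Cacna1h*, *Il7* and *Cmtm3* they were genes known from liver and *Ttn*. Of 51 hepatocyte genes tested, 19 reached the count minimum only through the WT males on the control diet. For genes of that kind the outcome of both tests was largely fixed in advance. The genotype count was 2 to 6 without any one of mice 1, 14, 32, 7, 19, 10 or 27 and 145 without mouse 25, and the diet count was 48 without mouse 25, 321 without mouse 17 and 1276 without mice 16 and 17. The *Cacna1h* difference of 1.14 in WT mice stood against 0.07 in KO mice (interaction 1.07 ± 0.20, adjusted p = 0.0321). This interaction call was lost in edgeR and without any one of mice 1, 14, 32, 7, 4, 19 or 27, where no positive interaction passed. For the osteoclast genes, the difference between WT and KO mice did not pass this test. edgeR called 0 genes in the genotype test (1681 with an unadjusted p under 0.05) and 6 in the diet test, so that these calls depended on the method.

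Lists without a call in limma covered marrow and housekeeping functions. They included 40 cell division genes (median -0.17; 5 with an unadjusted p under 0.05; 0 called by edgeR and 0 by DESeq2), 26 erythroid genes (-0.08; 0, 0 and 0), 22 cholesterol synthesis genes (-0.06; 0, 0 and 0), 73 cytosolic ribosomal protein genes (-0.18; 22, 0 and 0), 22 dendritic cell and MHC class II genes (0.17; 2, 0 and 0) and 26 prostaglandin genes (-0.15; 9, 0 and 3). Negative differences were found in 40 of the 40 cell division genes and 72 of the 73 ribosomal protein genes, against 7671 of all 15059 genes. Of these, 14 and 8 lay below the males without overlap (12.7% of all genes). The erythroid, cholesterol synthesis, dendritic cell and prostaglandin lists had 20 of 26, 15 of 22, 4 of 22 and 15 of 26 negative differences. Called genes were spread over all 19 autosomes, with 0.849% of tested genes on chromosome 11 and 3.17% on chromosome 3.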

How the data were processed

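RNA of osteocyte-enriched bone was sequenced from 23 mice in 8 groups of sex, genotype and diet. The authors checked reads with FastQC 0.11.5, aligned them with STAR 2.7.10a to mm10 and counted reverse-stranded reads of mapping quality 10 or more per gene with featureCounts of subread 2.0.3. The deposited values are counts divided by DESeq2 size factors, a normalized signal. They gave whole reads for 100% of values (tolerance 0.01), 7217601 to 33352631 per library. One KO female on the control diet had been left out by the authors.

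Genes that reached a value of 10 in 2 or more libraries were retained (15638, of which 15059 were autosomal). The log2 of the value plus 1 was fitted with limma 3.58.1 (8 group means, all 23 libraries, trended variance), and p-values were adjusted by Benjamini-Hochberg over all kept genes; calls had an adjusted p under 0.05. Log2 fold changes are females minus males on that scale, which understates changes of low genes, and errors are SE. Counts are given by mouse in the order 1, 14 and 32 for WT females and 7, 24 and 25 for WT males. edgeR 4.0.16 and DESeq2 1.42.0 were run on the recovered reads (R 4.3.3), and figures were drawn in Python 3.11.15 with matplotlib 3.10.9. On simulated counts for this comparison, limma found 92 of 100 genes changed 2-fold and 100 of 100 changed 4-fold, with 8 of 15432 unchanged genes called. The simulation assumed the spread between mice, changed only genes of higher counts and fitted the WT control-diet groups alone. It had no male that stood apart as mouse 24 did, so these shares are not the power of the main fit.

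Named genes were the 15 largest rises and falls without overlap of the sexes (leaving out predicted genes, RIKEN and BAC clones, small RNAs and antigen receptor segments), 15 that recurred in all strata, the 10 leading genes of each interaction, the 4 lowest p-values of each of 53 lists, steroid receptors and genes the study follows; Mmp14, Ckb, Itgav, Sp7, Col13a1, Col1a1, Nrp2, Ifi44, Ccl9, Cd28, Orm2, Fth1, Ftl1, Tac2, Nt5e, Sost, Csf1 and Tnfrsf11b, among others, were added after their values were seen. The comparison and lists were chosen with earlier results of these data known. P-values measure the spread between these mice. One called gene of the osteoblast and mineral matrix list is not reported here by name.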

Additional observations from a re-analysis of the deposited data

Results flagged for a closer look

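The sex difference (log2 fold change, females minus males) of 12 genes differed between WT and KO mice on the control diet by the interaction test in limma (adjusted p 0.00365 to 0.047). *Cacna1h*, the T-type calcium channel gene, was the only one with a larger positive difference in WT mice, by 1.07 ± 0.20 (SE). Its interaction call was lost in edgeR and without any one of mice 1, 14, 32, 7, 4, 19 or 27. *Il7*, a cytokine needed by developing lymphocytes, had a sex difference of 0.35 in WT mice and 1.90 in KO mice, which gave an interaction of -1.55 ± 0.29 (adjusted p = 0.047). For the muscle gene *Ttn* the interaction was -2.21. The other 9 genes are known from liver, with interactions of -8.35 for *Pzp*, -8.08 for *Tat*, -8.15 for *Cps1*, -6.13 for *Mug1*, -7.17 for *Mup3*, -6.02 for *Azgp1*, -7.43 for *Mat1a*, -7.08 for *Fga* and -8.08 for *Hrg*. *Pzp*, *Tat*, *Cps1*, *Mup3*, *Mat1a* and *Fga* are on the hepatocyte list. Their counts are thus part of its high sums in the WT males on the control diet. Genes that reached the count minimum only through those males had interactions largely fixed in advance. The part of liver RNA in the interactions of *Mug1*, *Azgp1* and *Hrg*, which are not on the list, was not tested.

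In WT mice, the sex difference of 25 genes differed between the control and the low-calcium diet (adjusted p 2.22e-05 to 0.0493). *Cmtm3* had a sex difference of -0.07 on the control diet and 0.57 on the low-calcium diet, an interaction of -0.63 ± 0.13. For *Ttn* it was -2.47. The other 23 are known from liver, with interactions of -11.96 for *Pzp*, -12.56 for *Alb*, -10.93 for *Cps1*, -9.64 for *Fga*, -10.49 for *Fgb*, -8.50 for *Apob*, -8.12 for *Ahsg*, -6.73 for *Mug1*, -7.15 for *Tat*, -10.91 for *Serpina3k*, -8.00 for *Mat1a*, -7.61 for *Hpx*, -8.47 for *Plg*, -9.75 for *Serpina1e*, -7.01 for *Mup3*, -5.88 for *Itih4*, -5.72 for *Azgp1*, -8.18 for *Fgg*, -6.93 for *Ttr*, -7.30 for *Gc*, -5.78 for *Ces1c*, -6.10 for *Ces3a* and -7.27 for *Hrg*. Members of the Serpina1, Serpina3, Mup and Mug families are near-identical copies and are uncertain. Genes that reached the count minimum only through the WT males on the control diet had interactions largely fixed in advance. In the genotype test, edgeR called 0 genes, with 1681 at an unadjusted p under 0.05 in edgeR, and DESeq2 called 102.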

How the results depend on the processing

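The comparison of WT females with WT males gave 277 calls, and 670 with DESeq2, 4284 with library quality weights (mouse 1 had a weight of 10.31), 707 when the 6 mice were fitted alone and 43 with the hepatocyte and muscle covariates. Leaving out 1 mouse gave 91 to 401. The covariates turned the sign of *Alb* (0.20), *Apoa1* (0.90), *Fgg* (0.66), *Hrg* (0.55) and *Itih4* (1.14), and 4 of 109 named called genes kept their calls there. No other alternative turned the sign of a named called gene. *Alb* and *Fgg* are members of the hepatocyte list whose mean was the covariate. Hepatocyte sums were highest in the WT males on the control diet, so the covariate fit cannot separate the list from that group. The average over the other 3 strata gave 5533 calls, 2198 with the covariates and 1742 over the KO strata only, an average chosen after seeing the data. The genotype interaction gave 12 calls, 31 with a pseudocount of 5, 47 without the filter, 29 after quantile normalization, 0 in edgeR (1681 at an unadjusted p under 0.05), 102 in DESeq2, 831 with quality weights, 20 with the covariates and 2 to 145 without 1 mouse. The diet interaction gave 25 calls, 56 without the filter, 41 after quantile normalization, 6 in edgeR, 94 in DESeq2, 1482 with quality weights, 0 with the covariates (597 at an unadjusted p under 0.05 in limma), 1276 without mice 16 and 17, and 17 to 321 without 1 mouse. The cause was not tested. No paired analysis was possible because the replicate numbers are mouse numbers that no 2 groups share. With 3 mice a group, a gene that was not called is not shown to be equal between the sexes.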
